A study of Danio rerio with 12 samples.

Results

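The cytosolic ribosomal protein genes of the zebrafish eye were followed on 12 Affymetrix arrays after crush of the optic nerve. The members were all probe sets whose annotated gene symbol is rpl, rps or rplp followed by a digit. The nucleolar gene rpl7l1 and the kinases named rps6k were left out. This gave 77 of 15617 probe sets, for 72 gene symbols. Of these, 46 probe sets (44 symbols) belong to the large subunit and 29 (27 symbols) to the small subunit. The remaining 2 probe sets are of rps19bp1, which the symbol rule picks up but which encodes a protein that binds the small subunit protein RPS19, so it was put in neither subunit. The stalk genes rplp1 and rplp2l were not found under those symbols, and 1 probe set with several symbols was not used.

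A cytosolic ribosome is built from a small subunit, which holds the messenger RNA and reads its codons, and a large subunit, which joins amino acids into a chain. Each subunit is made of ribosomal RNA and a fixed set of proteins, most of them present as a single copy per ribosome. Because the proteins are needed in like amounts, their messenger RNAs are abundant in nearly every cell type and tend to move together. In mammals their translation depends on a pyrimidine-rich start of the messenger that responds to the growth kinase mTOR.

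All fish were wild-type adult male Danio rerio, with no allele or transgene in any group. In each fish the left optic nerve was crushed with forceps (ONX), and the right eye, drawn out of its orbit and put back with the nerve intact, served as the SHAM control. Whole eyes, with lens and both segments, were taken at days 4, 12 and 21, and each of the 6 groups had 2 pools of 5 eyes, which the labels call biological replicates. Every value below is from 1 pool on 1 array, so spread means spread between pools, and the labels do not say whether equal pool numbers mark the same fish. Levels are log2(signal + 16), here called log2 signal, and a difference of 1 on that scale is a 2-fold difference of signal + 16.

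ONX pool 1 of day 4 stood apart from the other arrays. Its rank correlation with them over the tested probe sets was 0.717 to 0.810, against 0.851 to 0.973 among the other 11 arrays. Markers of oocytes, of which 20 of 29 listed symbols were on the array in 22 probe sets, had a median log2 signal of 12.5 there and 4.67 to 5.90 on the other 11 arrays. Their summed signal was 159756 there and 441 to 1286 elsewhere, although the labels give male fish. Of the listed markers of the eye, 4 of 10 rod symbols, 7 of 10 cone, 4 of 14 lens and 11 of 13 eye muscle symbols were found. Their lowest signals on any array were 79.9, 509, 1323 and 2.88. No signal of the table is 0, the lowest being 0.17, so a value above 0 does not by itself show the tissue. On the ONX pools of day 4 the summed signals were lower than on the SHAM pools of that day for rod, cone and lens genes. They were 29720 to 33534 against 68821 to 69752 for rod and 80991 to 95216 against 177906 to 179726 for cone. For lens they were 19301 to 29227 against 44836 to 51303. The sums of eye muscle genes overlapped (19032 to 56039 against 39608 to 50563). The part of these markers in the day 4 results was not tested. For the members, the medians, the calls and the leading genes of day 4 are therefore also given without ONX pool 1. For other lists of translation genes, a median of day 4 is also given on each ONX pool.

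No ribosomal protein gene passed the test between ONX and SHAM eyes at any day. The test was limma's moderated test on all 9301 probe sets in the upper 60% by mean log2 signal, with a Benjamini-Hochberg adjusted p under 0.05 over all of them. Of the 77 members, 76 were tested. The other, the dimmer probe set of rpl21, lay between 4.59 and 5.68 log2 signal on all arrays. At day 4, 0 of 76 members were called, while 17% of all tested probe sets were (5.29% higher and 11.7% lower in ONX). The split of all calls, 492 higher and 1090 lower, became 839 and 517 when the hybridisation controls set the scale of each array, 174 and 214 when the poly-A controls did, and 319 and 1499 with each array centred on its median. The lowest adjusted p of a member was 0.0634. At an unadjusted p under 0.05, 1 of 76 members passed, against 36.9% of all tested probe sets. These counts rest on the fit with both ONX pools, so they do not show that the members moved less than other genes. Without ONX pool 1 of day 4 the median difference of the members was 0.40, against -0.04 over all tested probe sets. In whole-eye RNA, fewer cells of a type and less RNA per cell cannot be told apart.

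The 95% intervals show how large a difference the fit leaves room for, with the signals as deposited and 1 spread shared by the 6 groups. At day 4 the interval of the ONX minus SHAM difference lay within 2-fold either way for 71 of the 74 probe sets of subunit proteins, and within 1.5-fold for 29. The 3 wider ones were of rps27l, rpl22l1 and rps12, described further on. At day 12 and at day 21 all 74 intervals lay within 2-fold, and 20 and 45 of them within 1.5-fold. The standard errors ran from 0.17 to 0.32 log2 units, more than the median difference of the members at each day. Each probe set had the same standard error at all 3 days, since the 6 groups share 1 estimate of spread. The median size of the gap between pools was 0.62 over the members in ONX day 4 and 0.05 to 0.26 in the other groups. The intervals and tests of days 12 and 21, and of SHAM eyes between days, thus carry the spread of day 4 too. In turn, the day 4 intervals carry the smaller gaps of the other groups. They may therefore be narrower than the gap between the ONX pools of day 4 would give.

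**Figure D1:**
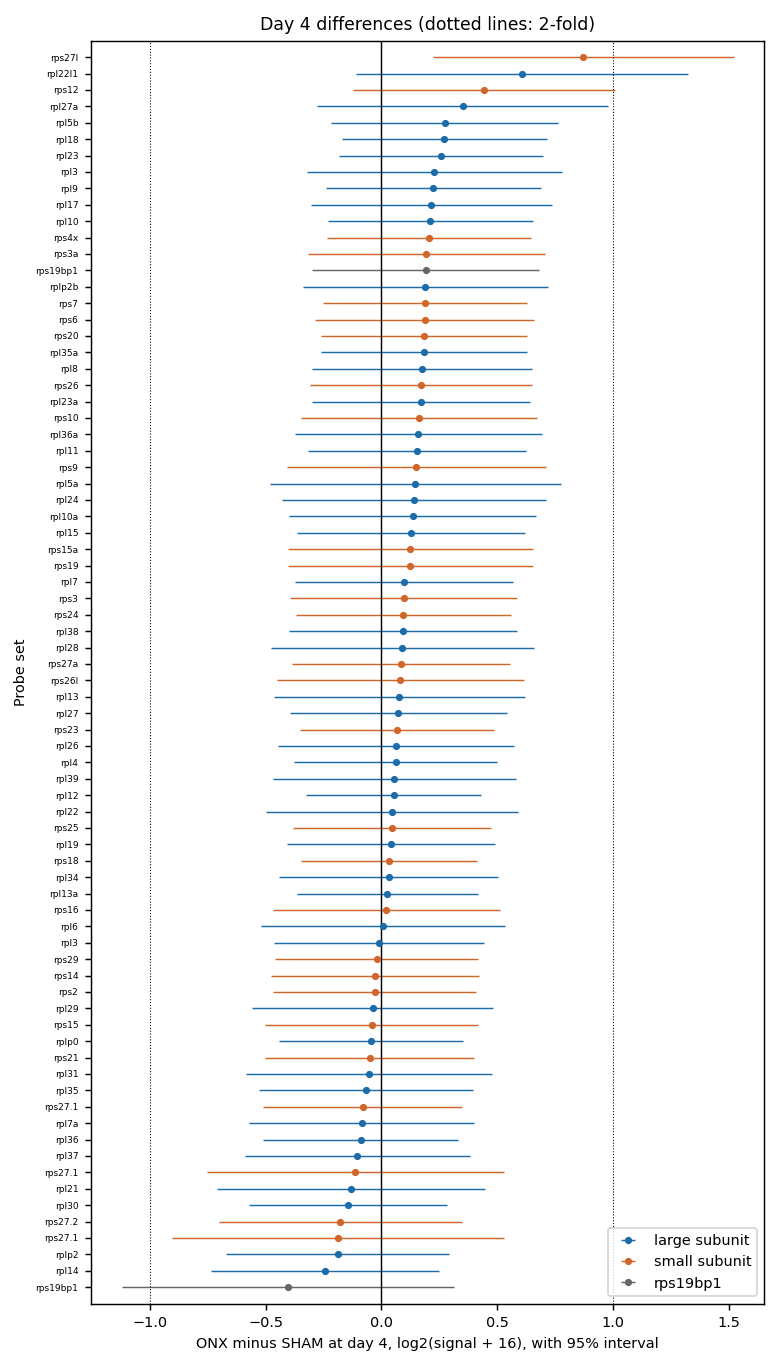
Difference of ONX minus SHAM at day 4 in log2(signal + 16) for the 76 tested probe sets (points), with 95% intervals (bars) and dotted lines at 2-fold. Most intervals cross 0 and stay within 2-fold, and rps27l, at 0.87, is the only one whose interval lies wholly above 0.

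The medians of the large and the small subunit lay close together at all 3 days. At day 4 the median difference was 0.08 for the 45 tested large subunit probe sets and 0.08 for the 29 of the small subunit, beside -0.09 over all tested probe sets. Of the large subunit 33 of 45 lay above 0, and of the small subunit 20 of 29. At day 12 the medians were 0.13 and 0.13, with all 45 and all 29 differences above 0, and the median over all tested probe sets was -0.01. At day 21 they were -0.06 and -0.06, with 36 of 45 and 25 of 29 below 0. The sign of these medians depends on the scaling: over all tested members the day 4 median was -0.08 with arrays centred on their medians and 0.45 with hybridisation controls, where all probe sets had -0.25 and 0.28. With poly-A controls it was -0.01 at day 12 and 0.17 at day 21, where all probe sets had -0.15 and 0.23. Relative to the median of all probe sets the members were at 0.17, 0.14 and -0.06 at the 3 days, which these scalings cannot alter since they add 1 constant per array. Left-out arrays did alter it: at day 4 it was 0.44 without ONX pool 1 and -0.004 without ONX pool 2. At day 12 it was 0.016 without SHAM pool 2 and 0.017 without ONX pool 2, but 0.27 without SHAM pool 1 and 0.26 without ONX pool 1. With quantile normalization it was 0.07 at day 12. At day 21 it was 0.06 without ONX pool 1 and -0.18 without ONX pool 2. On single arrays the median shift of the large subunit, each probe set taken from its own mean over the 12 arrays, differed from that of the small subunit by -0.03 to 0.04.

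**Figure D2:**
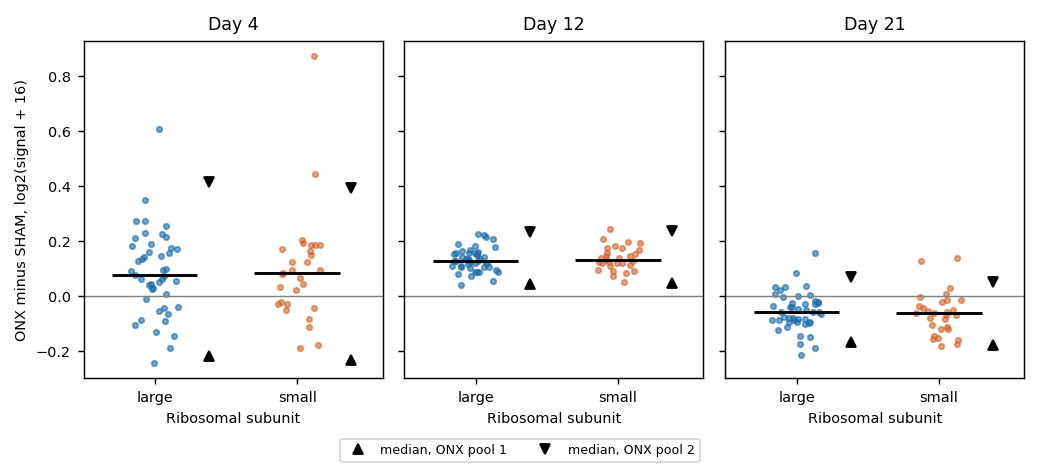
ONX minus SHAM difference in log2(signal + 16) of each tested subunit probe set at the 3 days (points; large subunit 45, small subunit 29), with the median (line) and the median of each single ONX pool against the SHAM mean (triangles). The clouds of both subunits lie at the same height at each day, and the single ONX pools lie on either side of the median, at -0.22 and 0.41 over all 74 at day 4.

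With the signals as deposited, the ONX pools of day 4 differed by more than ONX differed from SHAM. Their gap had a median of 0.62 over the members. At day 4 the median shift of the 74 subunit probe sets from their own 12-array mean was -0.07 and -0.02 on the SHAM pools, and -0.26 and 0.36 on the ONX pools. On the deposited scale ONX pool 1 thus lay below and ONX pool 2 above both SHAM pools. The controls were not level on these arrays. Hybridisation controls had median shifts of 0.13 and 0.19 on SHAM and -0.33 and -0.27 on ONX. Poly-A controls had 0.19 and 0.07 on SHAM and -0.60 and 0.28 on ONX. When these control shifts are taken off the member medians, both ONX pools lie above both SHAM pools with either kind of control. With the poly-A controls ONX pool 1 then lies above ONX pool 2. The order of pools under these scales was not worked out for single probe sets. Against the SHAM mean of day 4, 6 of 74 probe sets were higher on ONX pool 1 and 74 of 74 on ONX pool 2. On ONX pool 1 the median over all 9301 probe sets was also down, by -0.22, while on every other array it lay between -0.02 and 0.03.

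At day 12 the median shifts were 0.08 and -0.16 on the SHAM pools and 0.01 and 0.19 on the ONX pools, so the groups overlapped. At day 21 they were 0.03 and -0.03 on the SHAM pools and -0.17 and 0.06 on the ONX pools, which again overlapped. The gap between the pools of a group went 1 way for nearly all members: 74 of 74 were higher on pool 2 of ONX day 4, 73 on pool 1 of SHAM day 12, 70 on pool 2 of ONX day 12 and 72 on pool 2 of ONX day 21. In SHAM day 4 and SHAM day 21, whose pools differed by a median of 0.04 and 0.06, 52 and 54 members shared a direction. The median over all tested probe sets differed between pools by -0.27 in ONX day 4 and by at most 0.06 in the other groups.

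**Figure D3:**
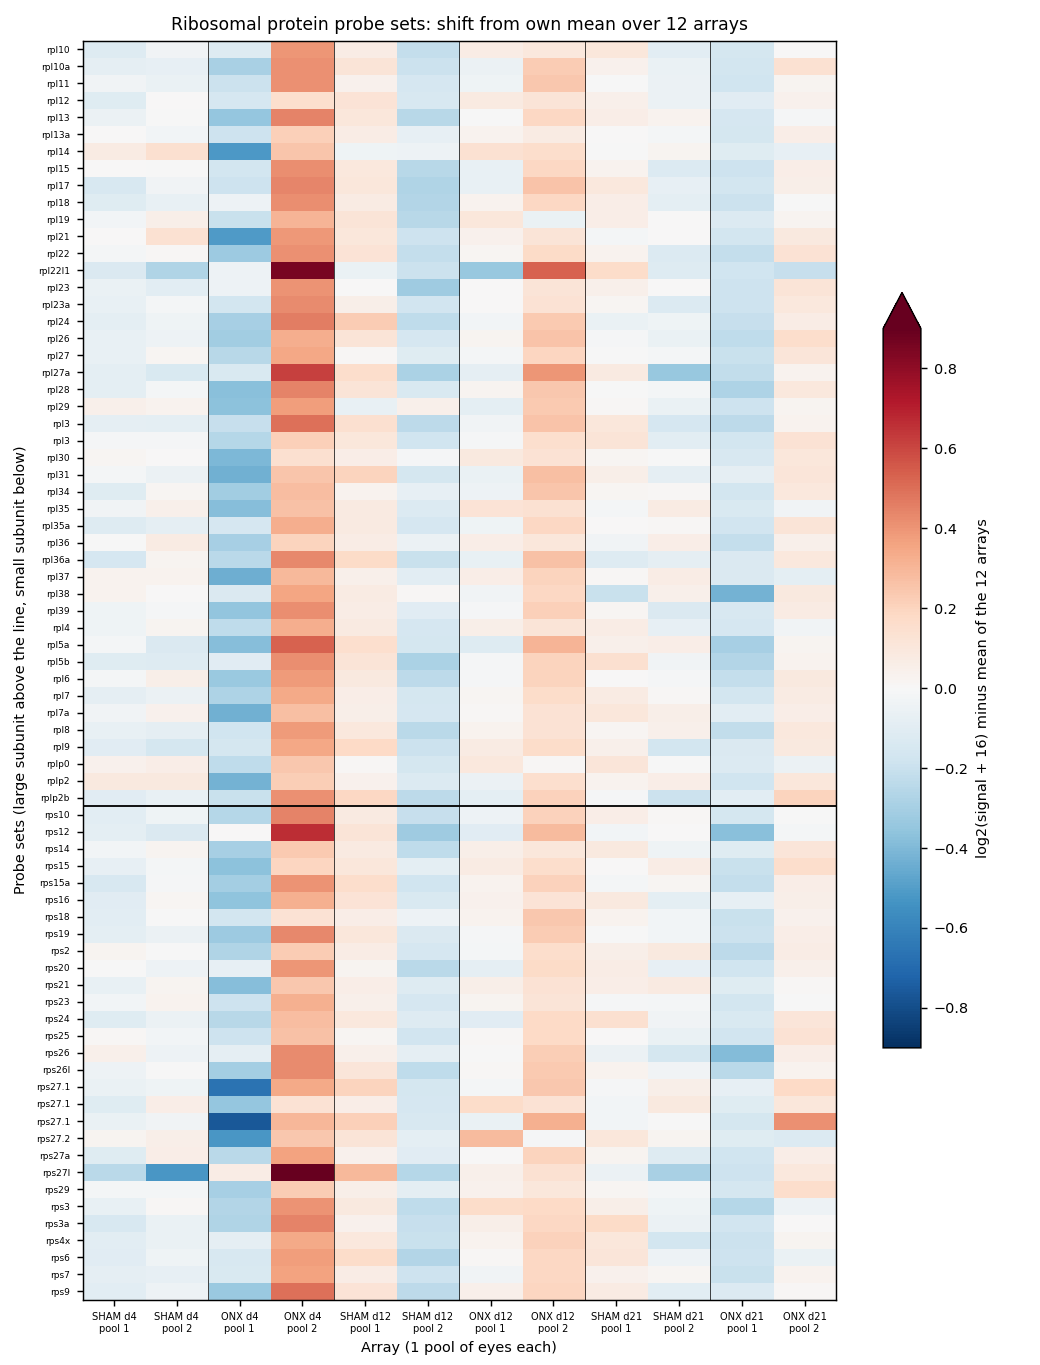
Shift of the 74 tested subunit probe sets (by row, large subunit above the line) from their own mean over the 12 arrays (by column), in log2 units, red above and blue below that mean. Columns rather than rows carry the pattern: ONX pool 2 of day 4 is red in all 74 and ONX pool 1 of day 21 blue in all 74.

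Leaving out a pool of ONX day 4 moved the members as a block. Without ONX pool 1 the median difference of the members at day 4 was 0.40 (large subunit 0.42, small subunit 0.39), beside -0.04 over all tested probe sets. All 74 subunit probe sets then lay above 0, from 0.13 to 1.29. Without ONX pool 2 the median was -0.22, 6 of 74 lay above 0 and 8 members were called, all lower in ONX, among 4008 of the 9301 probe sets. These 8 were rpl7a, rpl14, rpl21, rpl30, rpl37, rplp2, rps27.1 (1 of its 3 probe sets) and rps27.2, with adjusted p from 0.00715 to 0.0497. The median over all tested probe sets was also -0.22 without ONX pool 2. With the signals as deposited, the direction of the members at day 4 therefore rests on which ONX pool is kept. Leaving out a pool was not combined with other scalings. With both pools kept, the member median was 0.45 with hybridisation controls, 0.29 with poly-A controls and -0.08 with arrays centred on their medians.

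The poly-A controls and markers of other cells were set beside this gap between pools. The controls had the order of the ribosomal proteins in ONX day 4 (median shift -0.60 on pool 1 and 0.28 on pool 2), SHAM day 12 and ONX day 21. They had the opposite order in SHAM day 4, ONX day 12 and SHAM day 21. Their part in the gap was not tested. The list of phagocyte genes, of which 10 of 14 symbols were found in 16 probe sets, had a higher median on the pool with the higher ribosomal proteins in 6 of 6 groups, by 0.48, 1.52, 0.73, 0.75, 0.28 and 0.56 log2 units in SHAM and ONX of days 4, 12 and 21 in turn. The list of proliferation genes did so in 5 of 6 groups, eye muscle in 4, oocyte in 3, rod and lens in 2 and cone in 1. The eye muscle median was higher on that pool by 1.34, 1.80 and 1.20 log2 units in ONX of days 4, 12 and 21. In SHAM of these days its differences were -0.36, -0.10 and 0.28. By summed signal the phagocyte list did so in 5 of 6 groups, and the proliferation and eye muscle lists in 4 of 6. By sum, the order of the phagocyte and proliferation lists turned in ONX day 4, the group with the largest gap. The phagocyte sum was 18036 on pool 1 and 12246 on pool 2, and the proliferation sum 14104 and 9005. The eye muscle sum was 19032 on pool 1 and 56039 on pool 2, the order of the ribosomal proteins. The summed phagocyte signal was 2708 to 3924 on the SHAM pools of day 4. It was 3201 to 5674 and 3380 to 8034 at day 12, and 4010 to 5432 and 3507 to 5868 at day 21. The lowest signal of a phagocyte probe set was 1.39. This order was seen after the values were known, and its part in the ribosomal protein levels was not tested.

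**Figure D4:**
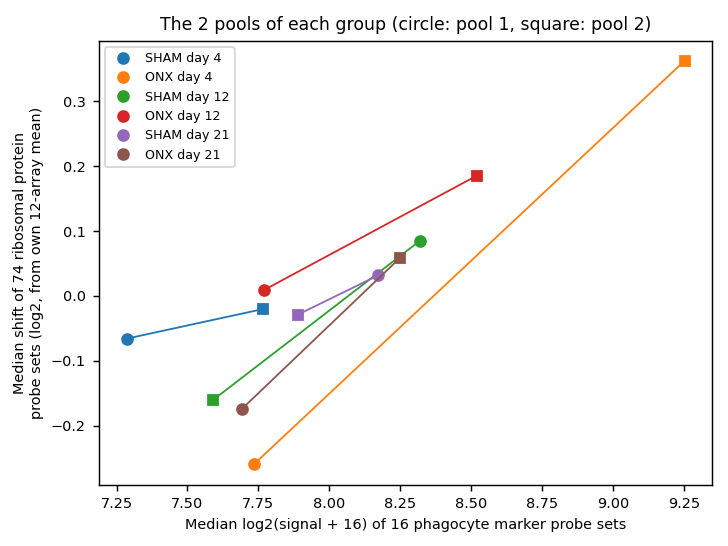
Median shift of the 74 subunit probe sets (y, log2 units) against the median log2(signal + 16) of 16 phagocyte marker probe sets (x) on the 12 arrays, with a line joining the 2 pools of each group. All 6 lines rise from left to right, the longest being ONX day 4, from -0.26 to 0.36 on the y axis, although the summed signal of the markers has the opposite order in that group.

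Most members varied little over the whole series. The 72 subunit probe sets with a mean log2 signal of at least 12 had a range over the 12 arrays of 0.30 to 1.17, with a median of 0.66. Over all tested probe sets, of any level, the median was 1.11. Other probe sets of equal brightness were not set beside them, so the narrower range is not shown to be particular to these genes. The narrowest was rpl12, a protein at the base of the stalk, at 0.30, followed by rpl13a at 0.40. Of the 72, 67 were highest on ONX pool 2 of day 4, and 50 were lowest on ONX pool 1 of day 4, 13 on SHAM pool 2 of day 12 and 8 on ONX pool 1 of day 21. Across these 72 probe sets, which share all arrays, the size of the gap between the ONX day 4 pools had a correlation of -0.72 with the mean level, so the brighter probe sets had the smaller gap.

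Between the days, SHAM eyes differed by little in the median. From day 4 to day 12 the median difference of the SHAM means was 0.002 log2 units over the 74 subunit probe sets, with a range of -0.15 to 0.40. From day 4 to day 21 it was 0.03, with a range of -0.11 to 0.23. In limma's F-test over days, 0 of 76 members passed, as did 0% of all tested probe sets, with 0 of 76 at an unadjusted p under 0.05 against 1.85%.

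The gene furthest from SHAM at day 4 was rps27l, a paralog of the small subunit protein RPS27 that in mammals is induced by p53. Its log2 signal was 9.24 and 8.96 on the SHAM pools and 9.55 and 10.39 on the ONX pools of day 4. Both ONX pools lay above both SHAM pools of that day, with ONX pool 2 well above ONX pool 1. SHAM pool 1 of day 12, at 9.77, lay above ONX pool 1 of day 4. The difference was 0.87 ± 0.29 (SE, 2 pools a group; 95% interval 0.22 to 1.52), a 1.83-fold difference, with a limma adjusted p of 0.0634. Without ONX pool 1 it was 1.29 with an adjusted p of 0.0681, and without ONX pool 2 it was 0.45 with 0.196. At day 12 its values were 9.77 and 9.22 on SHAM and 9.53 and 9.62 on ONX. At day 21 they were 9.43 and 9.19 on SHAM and 9.30 and 9.58 on ONX, so the groups overlapped at both later days.

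Its paralogs had differences below 0 at day 4. rps27.1, with 3 probe sets, had differences of -0.11 ± 0.29, -0.08 ± 0.19 and -0.19 ± 0.32 (SE), and rps27.2 had -0.18 ± 0.24. On ONX pool 1 of day 4 the 3 probe sets of rps27.1 were at 11.88, 13.23 and 12.05, below the SHAM pools at 12.49 to 12.51, 13.47 to 13.64 and 12.75 to 12.78. On ONX pool 2 they were at 12.89, 13.71 and 13.11, above the SHAM pools. rps27.2 had 13.24 and 13.27 on SHAM and 12.69 and 13.46 on ONX. Without ONX pool 1 the differences of these 4 probe sets were above 0, from 0.16 to 0.39. The contrast between rps27l and its paralogs was not itself tested, and near-identical copies may share probe signal.

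Next came rpl22l1, the paralog of the large subunit protein RPL22, which in mammals can take its place in the ribosome. Its log2 signal at day 4 was 11.60 and 11.46 on SHAM and 11.69 and 12.59 on ONX, so both ONX pools lay above both SHAM pools, the first by a small margin. The difference was 0.61 ± 0.32 (SE; 95% interval -0.11 to 1.32), with an adjusted p of 0.196 in limma. Without ONX pool 1 it was 1.06 with an adjusted p of 0.0851, and without ONX pool 2 it was 0.16 with 0.705. At day 12 it was 11.67 and 11.54 on SHAM and 11.40 and 12.27 on ONX. At day 21 it was 11.90 and 11.62 on SHAM and 11.56 and 11.53 on ONX, both ONX pools then lying below both SHAM pools, with a difference of -0.22 ± 0.32. rpl22 itself was at 13.50 and 13.53 on SHAM and 13.19 and 13.93 on ONX at day 4, with a difference of 0.05 ± 0.25.

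**Figure D5:**
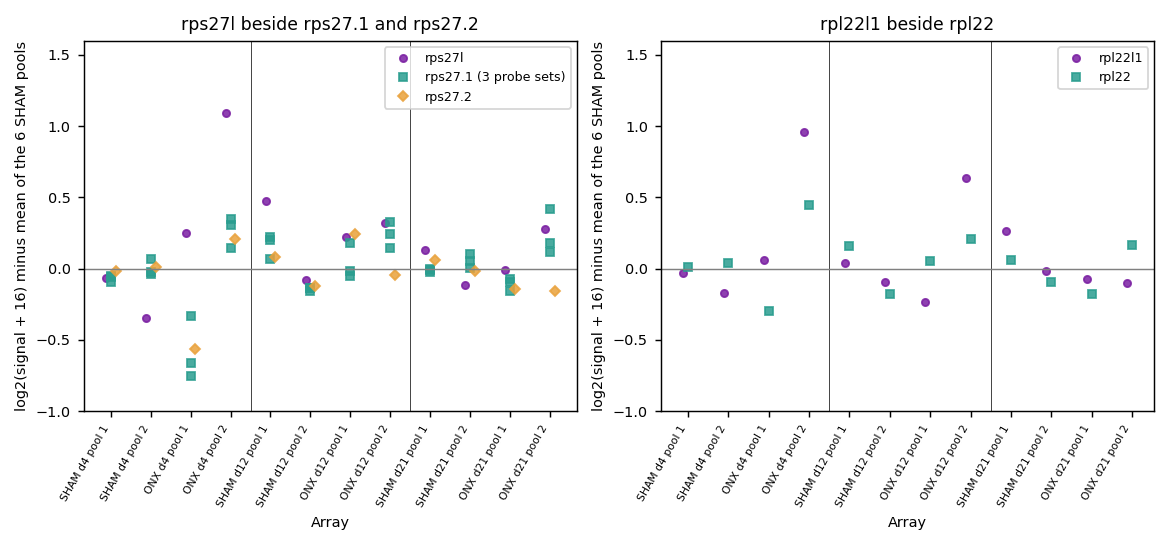
Level of rps27l with rps27.1 (3 probe sets) and rps27.2 (left) and of rpl22l1 with rpl22 (right) on each array, in log2(signal + 16) from the mean of the 6 SHAM pools, with 1 point per probe set. On ONX pool 1 of day 4 rps27l and rpl22l1 lie above 0 and their paralogs below it, and on ONX pool 2 all lie above 0.

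The third was rps12, a small subunit protein that in Drosophila takes part in the competition between cells of unlike ribosomal protein dose. It was at 13.34 and 13.30 on SHAM and 13.43 and 14.09 on ONX at day 4, a difference of 0.44 ± 0.25 (SE) with a limma adjusted p of 0.229. It was 0.78 without ONX pool 1 and 0.11 without ONX pool 2. At day 21 its ONX pools were at 13.05 and 13.41 and its SHAM pools at 13.40 and 13.43. After it by p at day 4 came rpl18 (0.27 ± 0.20) and rpl23 (0.26 ± 0.20), large subunit proteins whose ONX pools also lay above both SHAM pools. Without ONX pool 1 these were 0.50 and 0.48, and without ONX pool 2 they were 0.04 and 0.03.

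Groups that did not overlap at day 4 were few. Both ONX pools lay above both SHAM pools in 7 of 76 members, where 24.1% of all tested probe sets did so. These were rpl5b, rpl18, rpl22l1, rpl23, rps12, rps27l and 1 probe set of rps19bp1. Both ONX pools lay below both SHAM pools in 1 of 76, the other probe set of rps19bp1, where 36.1% of all did. The probe sets of rps19bp1 thus disagreed: 1 was at 7.75 and 8.07 on SHAM and 8.09 and 8.11 on ONX (0.19 ± 0.22), and the other at 8.61 and 8.80 on SHAM and 8.26 and 8.34 on ONX (-0.40 ± 0.32).

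The proteins of the stalk, the flexible arm of the large subunit that recruits elongation factors, had the order of pools seen over all members at day 4. rplp0, the stalk base, was at 14.71 and 14.73 on SHAM and 14.44 and 14.91 on ONX at day 4, a difference of -0.04 ± 0.18. rplp2 was at 13.78 and 13.78 on SHAM and 13.27 and 13.91 on ONX (-0.19 ± 0.22). Its paralog rplp2b was at 13.69 and 13.73 on SHAM and 13.59 and 14.21 on ONX (0.19 ± 0.24). In all 3 the SHAM pools lay between the ONX pools. At day 21 rplp0 was at 14.78 and 14.67 on SHAM and 14.55 and 14.62 on ONX, with ONX the lower in both pools.

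RPL5 and RPL11 enter the large subunit together with its smallest RNA, and in mammals they bind MDM2 when they are left unassembled. rpl5a was at 13.14 and 13.03 on SHAM and 12.78 and 13.69 on ONX at day 4 (0.15 ± 0.28). rpl5b was at 13.50 and 13.49 on SHAM and 13.51 and 14.03 on ONX (0.27 ± 0.22), with both ONX pools above SHAM but the first by less than 0.05. rpl11 was at 13.74 and 13.71 on SHAM and 13.58 and 14.18 on ONX (0.15 ± 0.21), so its groups overlapped.

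Among small subunit proteins with a known second role the picture was alike. rps6, the substrate of the S6 kinases that act below mTOR, was at 13.53 and 13.59 on SHAM and 13.49 and 14.01 on ONX at day 4 (0.19 ± 0.21). rps27a, made as a fusion with ubiquitin, was at 14.16 and 14.33 on SHAM and 14.03 and 14.64 on ONX (0.09 ± 0.21). In both genes the SHAM pools lay between the ONX pools.

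rps19, mutated in human Diamond-Blackfan anaemia, was at 13.57 and 13.60 on SHAM and 13.33 and 14.09 on ONX (0.12 ± 0.24). rps3, also a DNA repair enzyme in mammals, was at 13.85 and 13.93 on SHAM and 13.65 and 14.32 on ONX (0.10 ± 0.22). Here too ONX pool 1 was the lowest and ONX pool 2 the highest of the day. The paralogs rps26 (0.17 ± 0.22) and rps26l (0.08 ± 0.24) had the same order on the ONX pools, at 13.20 and 13.71 and at 13.10 and 13.83.

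At day 12 every subunit member lay above 0 with the signals as deposited, yet none was called. The differences of the 74 ran from 0.04 to 0.25, and 0 of 76 members passed, as did 0% of all tested probe sets; at an unadjusted p under 0.05 these were 0 of 76 and 0.29%. Both ONX pools lay above both SHAM pools in 8 of 76, against 7.29% of all tested probe sets, and the reverse in 0 of 76, against 7.48%. The 8 were rpl10, rpl14, rpl30, rpl35, rpl37, rps3, rps3a and 1 probe set of rps27.1. rps3 was at 14.00 and 13.69 on SHAM and 14.08 and 14.10 on ONX, the largest difference at 0.25 ± 0.22 (SE). The sizes rested on single pools: 73 of the 74 were lower on SHAM pool 2 than on SHAM pool 1, and 70 were higher on ONX pool 2 than on ONX pool 1. The member median, 0.13, was 0.012 without SHAM pool 2, 0.041 without ONX pool 2, 0.26 without SHAM pool 1 and 0.23 without ONX pool 1.

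At day 21 most members lay below 0 with the signals as deposited. Of the 74, 61 were below, with a range of -0.22 to 0.16, and 0 of 76 members passed, beside 0% of all tested probe sets, with 0 of 76 and 0.129% at an unadjusted p under 0.05. Both ONX pools lay below both SHAM pools in 12 of 76, against 11.6% of all, and above in 0 of 76, against 12.1%. The 12 were rpl5a, rpl13, rpl14, rpl22l1, rpl35, rpl37, rplp0, rps3, rps6, rps10, rps21 and rps27.2. rps3 was at 13.97 and 13.87 on SHAM and 13.65 and 13.87 on ONX, a difference of -0.16 ± 0.22 (SE). Its pool 2 values differed by less than the digits shown. The sign of the member median, -0.06, turned to 0.06 without ONX pool 1, and it was -0.17 without ONX pool 2 and -0.03 without SHAM pool 1.

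Averaged over the 3 days, 61 of the 74 differences were above 0, from -0.08 to 0.36, and 0 of 76 members passed. The lowest adjusted p was 0.349, for rps27l, whose average difference was 0.36 ± 0.17 (SE). None of all tested probe sets (0%) passed either, while 14.9% had an unadjusted p under 0.05, against 0 of 76 members. In the F-test of whether the ONX difference changes between days, 0 of 76 members and 0% of all passed. The lowest adjusted p of a member was 0.506, again for rps27l, and 0 of 76 members against 14.1% of all had an unadjusted p under 0.05.

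Other genes of translation were read from lists set by gene symbol and named for a role. Of 11 probe sets of elongation factors, which bring tRNA to the ribosome and move it along, 4 fell and 0 rose at day 4, where 11.7% of all tested probe sets fell and 5.29% rose. Their median was -0.15, beside -0.09 over all, with 5 above 0 and 6 below, from -1.32 to 0.60. Against the SHAM mean of day 4 their median was -0.28 on ONX pool 1 and -0.03 on ONX pool 2. Over all tested probe sets it was -0.22 and -0.04. eef1a1a, which carries aminoacyl-tRNA, was at 13.64 and 13.53 on SHAM and 12.21 and 12.56 on ONX, and fell by 1.198 ± 0.213 (SE; limma adjusted p 0.0176). Its paralog eef1a1b was at 10.32 and 10.08 on SHAM and 9.003 and 8.77 on ONX, and fell by 1.32 ± 0.23 (adjusted p 0.0176). Of the 3 probe sets of eef2l2, a relative of the translocation factor, 2 fell, by 0.88 ± 0.21 and 0.88 ± 0.23 (adjusted p 0.0258 and 0.0305). These 4 called probe sets had both ONX pools below both SHAM pools, as did 36.1% of all tested probe sets. Having been called for a difference, they were likely to be separated in this way, so this sets no contrast with the ribosomal proteins.

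Of 58 probe sets in the list of initiation factors, 7 rose and 0 fell at day 4, where 5.29% of all tested probe sets rose and 11.7% fell. Initiation factors assemble the ribosome on a messenger. The list took every symbol of eif followed by a digit, without eif2ak and eif4ebp, so it was set by name. It thus also holds eif5a2 and eif6, which act at other steps. For the whole list the following medians hold. Their median was 0.29, with 46 above 0, beside -0.09 over all. Against the SHAM mean of day 4 it was 0.11 on ONX pool 1 and 0.37 on ONX pool 2. eif5a2, a factor that eases the joining of difficult residues, was at 10.36 and 10.41 on SHAM and 11.94 and 11.70 on ONX, and rose by 1.44 ± 0.24 (limma adjusted p 0.0176). Its second probe set, at 0.88, had an adjusted p of 0.0532. eif4g2a, a scaffold of cap-independent initiation, was at 9.70 and 9.78 on SHAM and 11.45 and 11.02 on ONX, and rose by 1.498 ± 0.345 (adjusted p 0.023) in 1 of its probe sets, with 0.30 in another.

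The others were eif4a1a (0.95), the helicase of the cap complex, eif2s1a (0.90), a subunit of the factor that brings the initiator tRNA, and eif6 (0.96), which keeps free large subunits from joining. eif5b, which helps to join the subunits, rose in 2 probe sets (0.85 and 0.79). Of 66 probe sets of mitochondrial ribosomal proteins, which build the separate ribosome of that organelle, 0 were called, where 17% of all were. Their median was 0.18, with 51 above 0 and a lowest limma adjusted p of 0.0717. Against the SHAM mean of day 4 the median was 0.21 on ONX pool 1 and 0.08 on ONX pool 2. All of these lists kept 0 called probe sets at days 12 and 21 and over the average. Without ONX pool 1, SHAM pool 1 or SHAM pool 2 of day 4 in turn, no probe set of the 9301 was called at day 4 by limma, so the calls in these lists were lost too, while 2628, 2034 and 2300 had an unadjusted p under 0.05.

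Among 14 probe sets of genes tied to the ribosome or its products, 1 rose and 0 fell at day 4, a share close to the 5.29% of all that rose. This was rpl7l1, the gene left out of the members, which in human cells works in the making of ribosomes in the nucleolus. It was at 9.04 and 9.14 on SHAM and 10.83 and 10.09 on ONX, and rose by 1.37 ± 0.27 (SE; limma adjusted p 0.0176). rpl7, whose name it resembles, was at 13.81 and 13.84 on SHAM and 13.62 and 14.24 on ONX (0.10 ± 0.21).

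rack1, a scaffold bound to the small subunit, was at 13.85 and 13.88 on SHAM and 13.78 and 14.37 on ONX (0.21 ± 0.23). faua, which encodes a ubiquitin-like fusion with the small subunit protein S30, was at 13.65 and 13.79 on SHAM and 13.46 and 14.08 on ONX (0.05 ± 0.21). Both had the order of pools seen in the members. Of 14 probe sets of inhibitors and kinases of translation 0 were called, beside 17% of all, the lowest adjusted p being 0.0511 for eif4ebp1, an mTOR target that blocks the cap-binding factor, at 0.65 ± 0.20.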

How the data were processed

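Whole-eye RNA of 12 pools was measured on 12 single-colour Affymetrix zebrafish arrays. The authors deposited 1 signal intensity per probe set and array, made with MAS5 per the submitters' processing notes, which name no version. The mean after trimming 2% at each end was 500.1 on every array, and signals ran from 0.17 to 62980. The raw images, and eyes that the labels name at earlier times, were not analysed here. Of 15617 probe sets, 115 controls were set aside. Of the others, 10795 had 1 gene symbol, 135 several and 4572 none in the platform annotation. The gene IDs of all 77 members were found in the RefSeq table, with no symbol differing. Signals were taken as log2(signal + 16), and the upper 60% by mean, 9301 probe sets, were fitted with limma 3.58.1 in R 4.3.3 (1 mean per group, variance trend, 6 residual and 4.234 prior degrees of freedom), so the 6 groups share 1 estimate of spread. Calls were made at a Benjamini-Hochberg adjusted p under 0.05 over all 9301. The number of arrays limits the precision. The steps were tested on simulated data with independent noise of 1 spread per probe set over all 12 arrays. Such data cannot show how calls hold under the larger gap between the ONX pools of day 4.

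The members and gene lists were chosen with earlier results of these data known, so lists are described by counts and medians and a score over members gets no p. Named genes were the 5 members with the smallest p in each comparison without member calls, stalk genes, rpl5a, rpl5b, rpl11, rps3, rps6, rps19, rps27a, paralog or like-named pairs, and called genes of the 5 lists. The genes of groups that did not overlap, rpl12 and the members called without ONX pool 2 of day 4, were named after their values were seen, as were rack1, faua and eif4ebp1. Alternatives were other offsets, filters, scalings, variance models, array weights, a replicate block, arrays of the same day, and each array left out.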

Additional observations from a re-analysis of the deposited data

Results flagged for a closer look

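In 5 members both ONX pools lay on 1 side of both SHAM pools at a day and on the opposite side at another, which singled them out. For rpl22l1 the ONX minus SHAM difference was 0.61 at day 4 and -0.22 at day 21, a change of -0.82 ± 0.46 (SE). For rps3 it was 0.25 at day 12 and -0.16 at day 21, a change of -0.41. The change from day 12 to day 21 was -0.30 for rpl37, -0.29 for rpl14 and -0.26 for rpl35. The median difference of all tested members also turned, from 0.13 at day 12 to -0.06 at day 21. A turn in that direction was therefore not particular to these genes. In limma's F-test of the change over the 3 days none of the 5 passed, with adjusted p of 0.608 (rpl22l1), 0.752 (rpl14), 0.778 (rps3), 0.857 (rpl37) and 0.891 (rpl35). These members were picked from 76 by that pattern. The share of all tested probe sets with such a turn was not counted, so the 5 are not shown to be more than usual. At single days, separation of the groups in 1 given direction was seen in 7.29% to 36.1% of all tested probe sets.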

How the results depend on the processing

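The number of members called at day 4 was 0 and became 1 with arrays scaled to the hybridisation controls and 1 with the poly-A controls, both times rps27l (1.24 and 1.08, limma adjusted p 0.0363 and 0.0491). Over its 24 alternatives rps27l kept a difference above 0 at day 4, from 0.452 to 1.29, with adjusted p of 0.0363 to 0.257. With single arrays left out, the count at day 4 ran from 0 to 8 and that of the F-test over days from 0 to 1 (rpl14, adjusted p 0.0368), the upper ends being without ONX pool 2 of day 4. In the other comparisons no alternative called a member. The median difference at day 4 was 0.083, rose to 0.45 with hybridisation controls, and ran from -0.22 to 0.40 with arrays left out. It was -0.08 with each array centred on its median. At day 21 it was -0.06 and became 0.17 with poly-A controls. Members minus all probe sets was 0.17 at day 4 and 0.30 with quantile normalization. With arrays left out the median ran from 0.012 to 0.26 at day 12 and from -0.17 to 0.06 at day 21. The large minus small difference was -0.008, -0.002 and 0.006 at the 3 days. With quantile normalization it became 0.0047 at day 4 and -0.031 at day 12, and with arrays left out it ran from -0.020 to 0.024 at day 4 and from 0.00585 to 0.037 at day 21 (the upper end without SHAM pool 2). Of 5469 single-member values under alternatives, 10 passed the threshold, in the direction they had before, and the rest did not, so their signs carry no call. The labels leave it open whether same-numbered pools hold eyes of the same fish, and the main fit treated them as unpaired. Their deviations had correlations of 0.12, -0.12 and -0.03 at days 4, 12 and 21, which cannot exclude a pairing. With the replicate block 0 members were called in every comparison (rps27l at day 4: adjusted p 0.106), and 0 probe sets in all at day 4.

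Over all probe sets the 1582 calls at day 4 (492 higher, 1090 lower) became 1356 (839, 517) with hybridisation controls, 388 (174, 214) with poly-A controls, 10 with day 4 arrays alone and 0 with array weights. They became 0 without either SHAM pool or ONX pool 1 of day 4, 4008 without ONX pool 2, and 917 to 998 without an array of day 21.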
